A study of Schizosaccharomyces pombe with 49 samples.

Results

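The 6 genes described here belong to the Cul4-Ddb1 ubiquitin ligase pathway of fission yeast (Schizosaccharomyces pombe). They are ubi4, which encodes polyubiquitin, the ligase subunit genes cul4, ddb1 and rbx1 (SPAC23H4.18c), cdt2, which encodes the substrate receptor, and spd1, which encodes a substrate. They were taken by symbol, 6 of the 7015 features that the count tables of 46 libraries share, and each was left out of the comparisons in which it was itself deleted.

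RNA of mitotic and meiotic cells was sequenced in bulk. In h90 cells, which can mate with their own clone, growing in rich YEA medium at 30C, the strains were tor2-ts6 with a deletion of cul4, ddb1 or ubi4, each with and without a pir1 deletion, then tor2-ts6 alone, then wild type. The allele tor2-ts6 is a temperature-sensitive form of the TOR kinase Tor2, and Pir1, encoded by iss10, is a factor of meiotic RNA elimination. Further h90 strains carried GFP-Pir1-SD, GFP-Pir1-SA or GFP-Pir1 in minimal EMM medium at 18C, with GFP-Pir1 also in YEA at 30C. The mat1Msmt0 strains, in which mating-type switching is blocked in M cells, were pir1 deletion and wild type in EMM at 29C and pir1 deletion in YEA at 29C. For tor2-ts6 and pir1 deletion mat1Msmt0 cells in YEA at 30C, only the authors' own comparisons with a second library were used. A meiotic course of 31 libraries compared pir1 deletion, red1 deletion and wild-type diploids at 26C during vegetative growth, after 4 h in nitrogen-free EMM-N, and hourly from 1 h to 8 h with 25 µM 1-NM-PP1. All strains of the course carry pat1-as2, an inhibitor-sensitive form of the Pat1 kinase, so the inhibitor starts meiosis in each of them. Each group has 1 library except the wild-type vegetative diploid, which has 2, and no label states separate cultures, so p-values measure the spread between these libraries, which may be technical.

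Ubiquitin is attached to proteins by ligases, and a ubiquitin chain marks a protein for the proteasome. In the Cul4-Ddb1 ligase Cul4 is the scaffold, the RING protein Rbx1 binds the ubiquitin-carrying enzyme, and Ddb1 joins the scaffold to the receptor Cdt2. In fission yeast this ligase removes Spd1, an inhibitor of ribonucleotide reductase, during S phase and after DNA damage, and cdt2 is known as a target of the S-phase transcription factor MBF.

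The promoters of cdt2 and spd1 hold different motifs. They are shown because both mRNAs were lower at 4-6 h of the meiotic course than at 1-3 h in a fit over all strains. That call passed in 19 of 24 alternative fits for cdt2 and in 16 of 24 for spd1. In the pir1 deletion and in wild type the levels of both at these hours overlapped, and only in the red1 deletion were they separate. Each is the 250 bases before the gene start in RefSeq, build ASM294v3 (cdt2, chr I:2035705-2035954, minus strand; spd1, chr I:5412193-5412442, plus strand). Capitals mark ACGCG on either strand, the core of the MBF element, in cdt2 and TGACGT on either strand, the CRE, in spd1.
cdt2: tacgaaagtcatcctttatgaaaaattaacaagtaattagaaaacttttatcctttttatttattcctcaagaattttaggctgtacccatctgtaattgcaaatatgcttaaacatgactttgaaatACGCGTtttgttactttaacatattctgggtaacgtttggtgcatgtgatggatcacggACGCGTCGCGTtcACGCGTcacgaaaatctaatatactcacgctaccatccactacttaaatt
spd1: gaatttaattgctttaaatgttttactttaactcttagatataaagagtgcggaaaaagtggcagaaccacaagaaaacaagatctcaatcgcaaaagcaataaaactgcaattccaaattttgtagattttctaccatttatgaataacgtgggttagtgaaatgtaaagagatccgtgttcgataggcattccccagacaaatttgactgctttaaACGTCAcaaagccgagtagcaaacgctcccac
The cdt2 window holds ACGCGT at 122, 63 and 50 bases before the gene start, and 2.64% of 5112 protein-coding windows of that length hold it. ACGCG on either strand, which overlaps ACGCGT, occurs 7 times there, and 9.47% of the windows hold it. The other 5 members have neither motif. The spd1 window holds TGACGT on the other strand 32 bases before the start, against 5.52% of the windows. GAANNTTC (9.49% of windows), GTAAACA (14.8%) and TTCTTTGTT (1.62%), searched on both strands, were in none of the 6 windows. A match is a string of letters, not a mapped site.

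The coding sequence of ubi4, on chromosome II, is a run of tandem ubiquitin units, and its repeats matter for counting. It has 1149 bases, in 5 units of equal length and 9 further bases. Units 1 and 2 start as follows, 5′ to 3′ on the coding strand, with capitals in unit 2 where it differs from unit 1.
unit 1: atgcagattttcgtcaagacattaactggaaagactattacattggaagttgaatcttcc
unit 2: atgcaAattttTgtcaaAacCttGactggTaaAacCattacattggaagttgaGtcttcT
The units were 93.0 to 99.6% identical in pairs and shared unbroken runs of 80 to 200 bases. The other ubiquitin genes, ubi1, ubi2, ubi3 and ubi5, shared no run longer than 29 bases with ubi4. A read inside a shared run cannot be placed in 1 unit. The deposited counts hold multimapping reads as an entry of their own that names no gene, and it was left out here. How many of those reads came from ubi4 is not given, and their share differed between compared groups. In vegetative diploids they were 14.5% of reads in pir1 deletion, 5.01% in red1 deletion and 8.99 and 14.7% in wild type. In starved diploids they were 6.58% in pir1 deletion, 3.57% in red1 deletion and 4.40% in wild type. In h90 cells in YEA they were 3.17% in tor2-ts6 and 10.1% in wild type.

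Levels are given as scaled CPM, reads per 1e6 gene reads after TMM scaling within a set of libraries. Gene reads per library, in units of 1e6, were 10.2 to 14.3 in the h90 tor2-ts6 set, 25.5 to 41.8 in the GFP-Pir1 set, 11.8 to 30.8 in the mat1Msmt0 set and 13.8 to 56.5 in the course. In the course the targeted genes iss10 and red1 were low in the strains labelled as deleted: iss10 was at 1.10 to 5.15 scaled CPM in pir1 deletion libraries, against 21.9 to 107.6 in wild type, and red1 at 2.74 to 13.1 in red1 deletion libraries, against 83.8 to 175.9 in wild type. Against total-read scaling, TMM moved the median of all genes by more than 0.1 (log2) in most course contrasts, by 0.32 for starvation and 0.37 for the red1 deletion. Changes below are relative to the TMM median. In bulk RNA, fewer cells expressing a gene and less RNA per cell cannot be told apart. In the course, reads were counted without strand. Levels there include reads on the opposite strand, 30.4% of the cdt2 reads in wild type at 4 h. Noncoding features overlap ubi4, cul4, ddb1 and rbx1 on the opposite strand in RefSeq. Of these, cul4 lost reads that overlap both. In wild-type vegetative library 1 it had 3046 reads without strand, against 3110 on its strand and 250 on the other. In that library the counts of ubi4, ddb1 and rbx1 without strand held the reads of both strands. The coding gene SPAC17H9.18C overlaps cdt2 on the same strand.

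Starvation or meiosis moved 4 of the 6 mRNAs in some contrast. Of all genes tested, 39.8% passed in starvation and 43.6% at 4-6 h against 1-3 h. The polyubiquitin gene ubi4 and the receptor gene cdt2 rose when nitrogen was removed. After induction cdt2 fell, and at 4-6 h ubi4 rose further while spd1 and cdt2 fell and rbx1 rose slightly. None of these 4-6 h calls held in every alternative fit, and the rbx1 difference changed sign with scaling by total reads. The transcripts of the scaffold cul4 and the adaptor ddb1 passed the test in none of the 4 contrasts between neighbouring phases with TMM scaling. With scaling by total reads both passed in starvation (0.57, adjusted p = 0.0287, and 0.56, adjusted p = 0.0133). These contrasts used edgeR's quasi-likelihood test over 31 libraries and 5687 genes, with strain as a term and Benjamini-Hochberg adjustment at a threshold of 0.05. Hours of a phase and strains stood in for replicates, so the SE and p-values include changes between the hours of a phase.

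**Figure D1:**
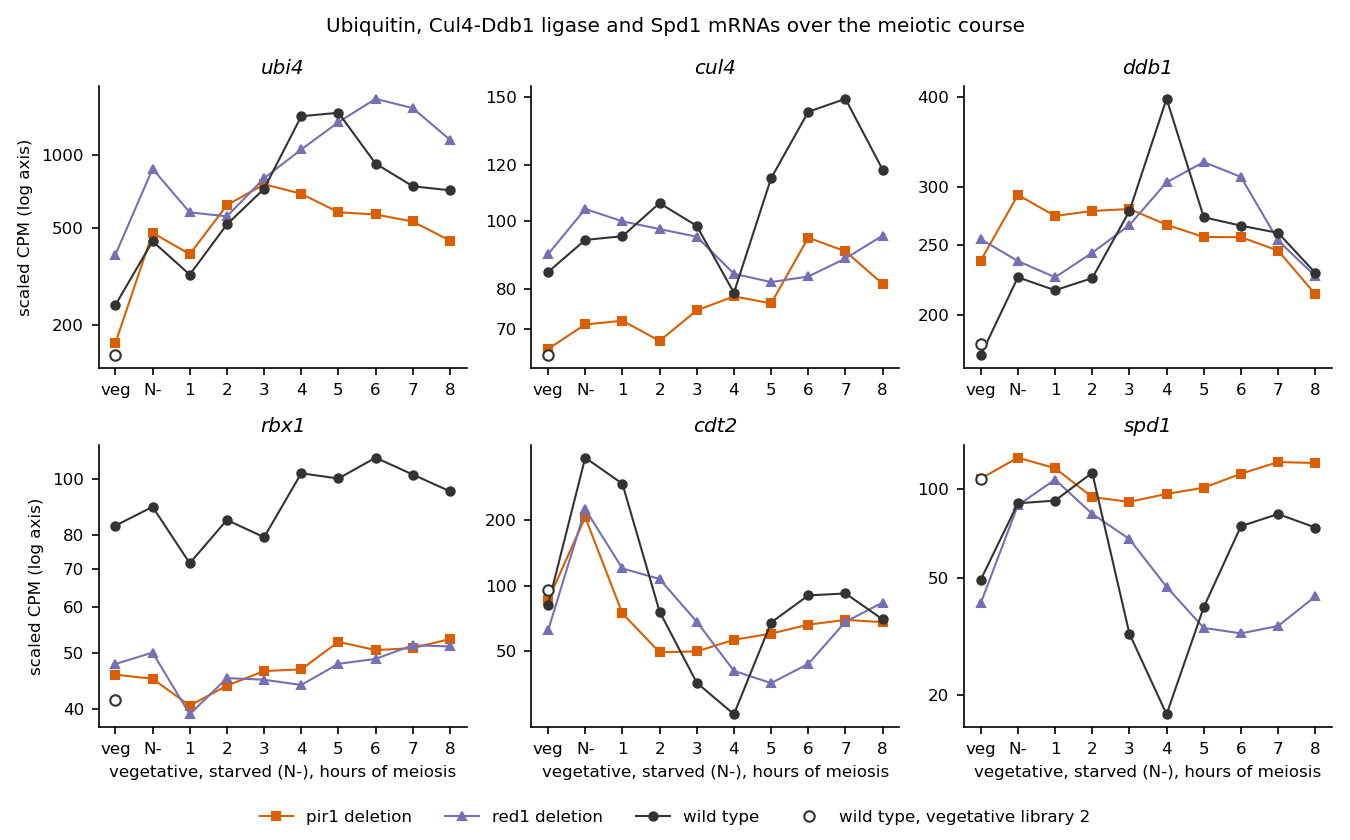
Scaled CPM (log axes, scaled per panel) of the 6 mRNAs in vegetative cells, starved cells (N-) and at 1 to 8 h of meiosis, 1 point per library, with the second wild-type vegetative library as an open circle. Wild-type cdt2 has its highest level, 388.5, in starved cells and its lowest, 25.7, at 4 h, and wild-type rbx1 lies above both deletion strains at every time except in the open circle.

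ubi4 encodes a chain of ubiquitin units that is cut into single ubiquitins. In starved cells it was at 479.9 scaled CPM in pir1 deletion, 879.2 in red1 deletion and 442.9 in wild type, against 168.7 in pir1 deletion, 389.8 in red1 deletion and 242.1 and 150.2 in wild type during vegetative growth. The starved and vegetative libraries did not overlap. The log2 difference was 1.34 ± 0.33 (SE, edgeR, adjusted p = 0.00203). At 4, 5 and 6 h ubi4 stood at 694.1, 582.8 and 570.6 scaled CPM in pir1 deletion, at 1056, 1368 and 1706 in red1 deletion and at 1447, 1495 and 924.0 in wild type. At 1, 2 and 3 h the levels were 391.7, 623.3 and 759.5 in pir1 deletion, 582.1, 560.6 and 804.0 in red1 deletion and 322.8, 519.5 and 727.6 in wild type. In red1 deletion and wild type every 4-6 h library was above every 1-3 h library, whereas the pir1 deletion libraries of these hours overlapped. The contrast of 4-6 h with 1-3 h was 0.81 ± 0.21 (log2, adjusted p = 0.00293), and without the wild-type libraries it was 0.55 and did not pass (adjusted p = 0.0915). The highest ubi4 level came at 3 h in pir1 deletion, at 6 h in red1 deletion and at 5 h in wild type.

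ubi1, ubi3 and ubi5, which encode ubiquitin joined to a ribosomal protein, moved the other way in starvation. Of the 4 other ubiquitin-list genes tested (ubi1, ubi3, ubi5 and the activating enzyme gene uba1), 3 fell and 0 rose in starved against vegetative cells, with log2 differences of -3.48 ± 0.36 for ubi1, -3.46 ± 0.39 for ubi3 and -3.68 ± 0.43 for ubi5 (SE, edgeR, adjusted p = 9.11e-09, 5.32e-08 and 8.52e-08). The median of the 4 was -3.47, beside 0.12 over all genes tested, of which 19.3% fell and 20.5% rose. The same 3 genes rose at 1-3 h against starved cells, for example ubi3 by 2.00 ± 0.34 (adjusted p = 0.000156). In wild type ubi3 was at 201.0 scaled CPM at its lowest, in starvation, and at 2634 at its highest, in vegetative growth.

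**Figure D2:**
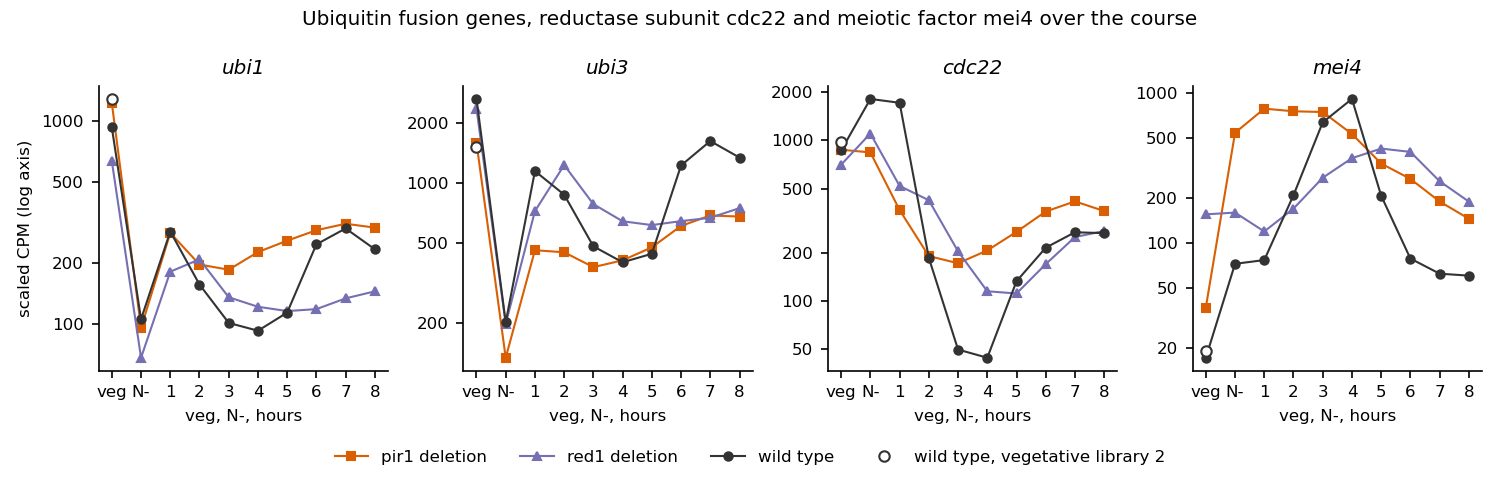
Scaled CPM (log axes) of ubiquitin fusion genes ubi1 and ubi3, of the ribonucleotide reductase subunit gene cdc22 and of the meiotic transcription factor gene mei4 over the course, 1 point per library. In wild type mei4 is highest at 4 h (915.8), in red1 deletion at 5 h (427.0) and in pir1 deletion at 1 h (788.9).

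The ligase subunit genes stayed within a narrower range. cul4 ran from 65.6 to 94.6 scaled CPM in pir1 deletion (median 75.3, 10 libraries), from 81.7 to 103.9 in red1 deletion (median 92.2, 10 libraries) and from 64.3 to 149.1 in wild type (median 98.3, 11 libraries). ddb1 ran from 213.8 to 292.9 in pir1 deletion, 225.6 to 325.1 in red1 deletion and 176.1 to 397.2 in wild type, where 4 h was the highest. rbx1, the RING subunit gene, was higher at 4-6 h than at 1-3 h by 0.25 ± 0.10 (log2, adjusted p = 0.0450). With scaling by total reads that difference was -0.062 (adjusted p = 0.709), so its direction depends on the scaling, and it passed in 10 of 24 alternative fits.

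cdt2 had the largest range of the ligase genes. In starved cells it was at 206.8 scaled CPM in pir1 deletion, 225.4 in red1 deletion and 388.5 in wild type, against 86.0 in pir1 deletion, 62.4 in red1 deletion and 81.7 and 96.2 in wild type in vegetative growth. The groups did not overlap, and the log2 difference was 1.77 ± 0.45 (adjusted p = 0.00227). At 1, 2 and 3 h cdt2 was at 74.8, 49.5 and 50.01 in pir1 deletion, at 120.3, 107.6 and 68.5 in red1 deletion and at 294.8, 76.2 and 35.9 in wild type. Each of these was below the starved library of its own strain, and the contrast with starved cells was -1.49 ± 0.36 (log2, adjusted p = 0.00698). That call is lost without the wild-type starved library (-1.33, adjusted p = 0.0882), without the red1 deletion libraries (-1.65, adjusted p = 0.0886) and without the pir1 deletion libraries (-1.33, adjusted p = 0.136). At 4, 5 and 6 h cdt2 was at 56.6, 60.4 and 66.4 in pir1 deletion, at 40.7, 35.8 and 43.8 in red1 deletion and at 25.7, 67.9 and 90.5 in wild type. The contrast with 1-3 h was -0.80 ± 0.28 (log2, adjusted p = 0.0227), and without the 1 h libraries it was -0.26 (adjusted p = 0.424). It also did not pass without 4 h, 5 h, the wild-type libraries or the red1 deletion libraries (-0.54 to -0.78, adjusted p of 0.0619 to 0.289).

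spd1 reached its low point in wild type at 4 h. At 4, 5 and 6 h it was at 96.3, 101.1 and 112.7 scaled CPM in pir1 deletion, at 46.6, 33.8 and 32.4 in red1 deletion and at 17.2, 39.7 and 74.8 in wild type. At 1, 2 and 3 h it was at 117.7, 93.9 and 90.5 in pir1 deletion, at 107.7, 82.4 and 67.7 in red1 deletion and at 91.4, 113.6 and 32.3 in wild type. All 4-6 h libraries of red1 deletion were below its 1-3 h libraries, and those of pir1 deletion and of wild type overlapped theirs. The contrast was -0.68 ± 0.25 (log2, adjusted p = 0.0297). It did not pass with any of 1, 2, 4, 5 or 8 h left out (adjusted p of 0.0510 to 0.149), without the wild-type libraries (0.0675) or without the red1 deletion libraries, where the difference was -0.38 (0.367).

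In starved against vegetative cells, 2 of 6 members rose and 0 fell, where 20.5% of all genes tested rose and 19.3% fell (39.8% in either direction). With scaling by total reads 5 members rose, cul4, ddb1 and rbx1 (0.53, adjusted p = 0.0375) among them. At 1-3 h against starved cells 1 fell and 0 rose (5.80% and 3.94% of genes, 9.74% together). At 4-6 h against 1-3 h 2 rose and 2 fell (22.0% and 21.6%, 43.6% together). At 7-8 h against 4-6 h none of the 6 passed in edgeR (1.74% rose and 0.404% fell, 2.15% together); 1 member, ddb1, was under an unadjusted p of 0.05, and DESeq2 called 1 member. Read against these shares, the counts do not set the members apart from other genes.

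**Figure D3:**
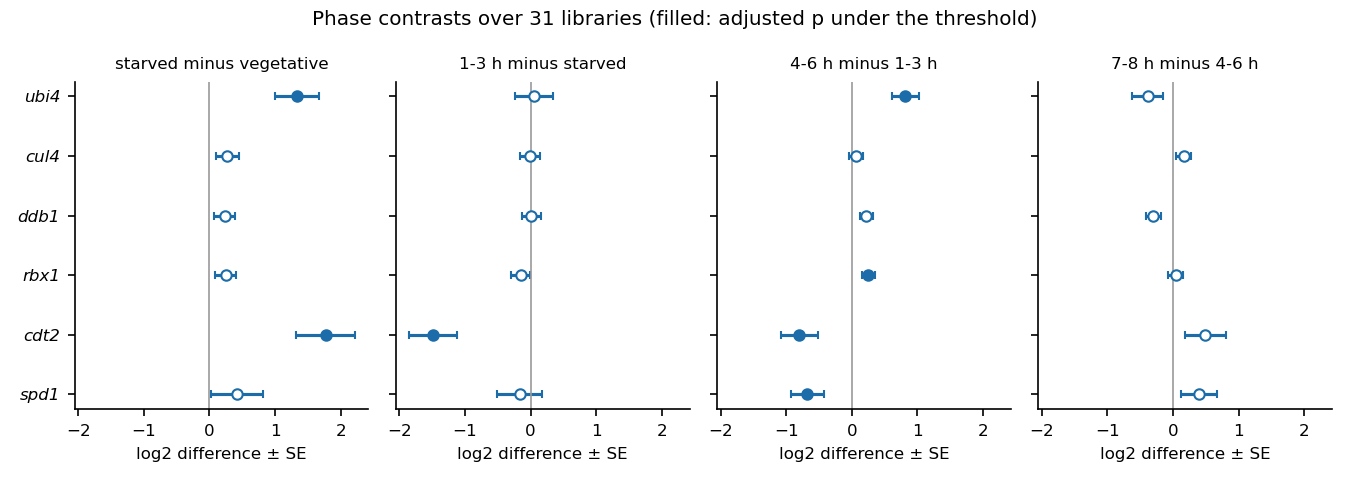
Log2 difference (± SE) of the 6 members between neighbouring phases over 31 libraries, later phase minus earlier, with filled points where the adjusted p was under 0.05. cdt2 lies at 1.77 in starvation and at -1.49 after induction, and cul4 and ddb1 have open points throughout.

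Genes of the S-phase programme moved with cdt2 in part. Over all genes tested, 20.5% rose and 19.3% fell in starved cells, and 22.0% rose and 21.6% fell at 4-6 h against 1-3 h. Of 9 further MBF regulators and targets, 6 rose and 2 fell in starved cells, with a median of 1.37 beside 0.12 over all genes: rep1, a co-activator, rose by 2.77 ± 0.38 (log2, edgeR, adjusted p = 1.13e-06), mik1, a mitotic inhibitor kinase, by 3.03 ± 0.58 (adjusted p = 0.000138) and res2, a DNA-binding subunit, by 2.35 ± 0.39 (adjusted p = 1.96e-05), whereas rep2, another co-activator, was at -2.29 ± 0.38 (adjusted p = 1.98e-05). Of the 4 reductase and licensing genes, suc22, the small reductase subunit, fell in starvation (-1.47 ± 0.33, adjusted p = 0.000865) and the others did not pass. At 4-6 h against 1-3 h, 3 of these 4 fell and 1 rose, with a median of -1.18 beside 0.02: the log2 difference was -2.24 ± 0.46 for the licensing gene cdc18 (edgeR, adjusted p = 0.000533), -1.13 ± 0.38 for its partner cdt1 (adjusted p = 0.0176) and -1.23 ± 0.45 for cdc22, the large reductase subunit (adjusted p = 0.0271), whereas suc22 rose by 0.68 ± 0.20 (adjusted p = 0.00794), a call lost with scaling by total reads. Among these genes ACGCGT was found 2 times before cdc22 and 1 time before cdt1, and not before suc22 or cdc18, while the shorter ACGCG was found 6 times before cdc18. Of the 9 MBF genes, yox1 had 1 ACGCGT and the others 0. ACGCG was found before yox1, nrm1 and cig2, and not before rep1, mik1, res2 or rep2.

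Some genes outside the list followed a member closely over the 31 libraries, as log2 scaled CPM among 3846 genes with a symbol and a mean of at least 20 reads. For cdt2 they were pht1 (Pearson r = 0.90), ams2 (0.89) and the MBF subunit gene cdc10 (0.89). For ubi4 they were hmt1 (0.94), did4 (0.92) and otu2 (0.92), for spd1 psy2 (0.91), hob2 (0.87) and mrpl38 (0.87). For cul4 they were msk1 (0.91), hfi1 (0.90) and irc3 (0.90), for ddb1 cut1 (0.91), eki1 (0.88) and iml1 (0.86), and for rbx1 snR101 (0.89), lsm8 (0.87) and isd11 (0.86). Among the members the highest r was 0.67, between ubi4 and ddb1, and the lowest -0.61, between ubi4 and spd1, while cdt2 and spd1 had 0.53. These r are descriptions, since the libraries share a time series, strains and depth.

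Red1 and Pir1 act together in the elimination of meiotic RNAs. Over the course, with time as a block, ubi4 rose and rbx1 fell in the red1 deletion, and spd1 rose while cul4 and rbx1 fell in the pir1 deletion. In the red1 deletion 1 of 6 members rose and 1 fell, where 14.2% of 5687 genes rose and 18.1% fell (32.3% together), and in the pir1 deletion 1 rose and 2 fell (17.4% and 24.1%, 41.5% together). With 1 library per strain and time, these p-values rest on the spread between hours of the course.

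ubi4 was higher in the red1 deletion by 0.54 ± 0.18 (log2, edgeR, adjusted p = 0.0274), with a median of 967.6 scaled CPM in red1 deletion and 717.5 in wild type. It did not pass when the wild-type starved, the red1 deletion vegetative or the 1, 6 or 7 h libraries were left out (log2 differences of 0.47 to 0.51, adjusted p of 0.0502 to 0.0720). By phase it passed before induction (0.97 ± 0.27, adjusted p = 0.0324) and at 7-8 h (0.88 ± 0.30, adjusted p = 0.0411). In the pir1 deletion ubi4 was lower at 4-6 h, by 1.05 ± 0.24 (log2, adjusted p = 0.00539), which held in all 7 alternative fits. Of the middle-meiosis genes followed, mei4 was highest at 1 h in the pir1 deletion (788.9 scaled CPM), against 4 h in wild type (915.8), and spo5, a regulator of meiosis II, was highest in starvation (5603), against 3 h in wild type (6823). In vegetative cells mei4 was already at 37.1 in pir1 deletion and 155.4 in red1 deletion, against 17.1 and 18.9 in wild type. There spo5 was at 22.05 in pir1 deletion and 138.0 in red1 deletion, against 10.3 and 3.68 in wild type. The times of the highest levels were not tested, nor whether they mark a stage of meiosis, nor their part in the ubi4 difference. Directly compared in the same fit, a contrast added after the data were seen, ubi4 was higher in red1 deletion than in pir1 deletion by 0.88 ± 0.19 (adjusted p = 0.000469), and spd1 was lower by 1.02 ± 0.24 (adjusted p = 0.00103). In that contrast 2 members rose, the second being cul4 (0.26, adjusted p = 0.0369), and 1 fell, where 27.0% and 23.7% of genes did (50.8% together). cul4 passed in 8 of 21 alternative fits (0.15 to 0.77, adjusted p up to 0.248), spd1 did not pass with total reads (-0.53, adjusted p = 0.0536), and ubi4 passed in 21 of 21.

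The rbx1 level of both deletions lay below 10 of the 11 wild-type libraries. It was at 40.5 to 52.8 scaled CPM in the 10 pir1 deletion libraries and at 39.1 to 51.5 in the 10 red1 deletion libraries, against 71.5 to 109.0 in 10 of the 11 wild-type libraries. The remaining wild-type library, vegetative library 2, was at 41.4. The log2 difference over the course was -0.87 ± 0.10 for pir1 deletion (adjusted p = 4.94e-07) and -0.89 ± 0.10 for red1 deletion (adjusted p = 5.09e-07), and both held in every alternative fit. The 2 wild-type vegetative libraries differed from each other by -1.004 (log2, library 2 over library 1), as much as the deletion strains differed from wild type.

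That disagreement reached other members. In vegetative cells spd1 was at 108.5 scaled CPM in pir1 deletion, against 108.4 in wild-type library 2 and 49.2 in wild-type library 1. cul4 was at 65.6 in pir1 deletion, against 64.3 in wild-type library 2 and 84.5 in library 1. ubi4 was at 168.7 in pir1 deletion, against 150.2 in wild-type library 2 and 242.1 in library 1, and the log2 ratio of library 2 to library 1 was -0.69. For rbx1, cul4, spd1 and ubi4 the pir1 deletion vegetative library was closer to wild-type library 2 than to library 1. Over all 5038 features with a mean of at least 50 reads, 12.7% were past a log2 ratio of 1 between the 2 wild-type libraries, 5.40% between pir1 deletion and wild-type library 2, and 14.6% between pir1 deletion and library 1. Reads on the gene's strand outnumbered those on the other by 7.03 in the pir1 deletion vegetative library, 7.47 in wild-type library 2, 4.03 in wild-type library 1 and 3.73 in the red1 deletion vegetative library. The labels tie no library to a kit, a sequencer or a day, so a difference between strains and one between preparations cannot be told apart for rbx1, cul4, spd1 and ubi4 in the course.

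spd1 was higher in the pir1 deletion over the course by 0.77 ± 0.23 (log2, adjusted p = 0.0109), with levels of 90.5 to 127.8 scaled CPM (median 110.6) in pir1 deletion and of 17.2 to 113.6 (median 74.8) in wild type. These levels include opposite-strand reads, 1.23 to 5.18% of the spd1 reads in pir1 deletion and 0.778 to 25.2% in wild type. The call passed in 21 of 21 alternative fits. At 4-6 h the difference was 1.35 ± 0.40 (adjusted p = 0.0209), and without the wild-type 4 h library it was 0.85 and did not pass (adjusted p = 0.130). cul4 was lower by 0.43 ± 0.10 (log2, adjusted p = 0.00136), with every pir1 deletion level at or below 94.6 scaled CPM. By phase, the red1 deletion moved 1 member up before induction, ubi4 (4.51% of 5721 genes higher, 3.78% lower, 8.29% together). It moved 1 down at 1-3 h, rbx1 (6.28%, 6.69% and 13%), and 1 down at 4-6 h, again rbx1 (12.5%, 14.6% and 27.1%). At 7-8 h it moved ubi4 up and cul4 and rbx1 down (10.7%, 13.8% and 24.5%). Of these red1 deletion calls, cul4 at 7-8 h passed in 2 of 7 alternative fits and was at -0.0044 with scaling by total reads (adjusted p = 0.991). With that scaling rbx1 did not pass at 1-3 h (-0.63, adjusted p = 0.142) or 7-8 h (-0.41, adjusted p = 0.329). The pir1 deletion moved 0 members before induction in edgeR (1.64% higher, 2.20% lower, 3.85% together), where ddb1 and rbx1 were under an unadjusted p of 0.05. The pir1 deletion moved cul4 and rbx1 down at 1-3 h (19.0%, 24.1% and 43.1%), spd1 up and ubi4 and rbx1 down at 4-6 h (9.89%, 15.4% and 25.3%), and cul4 and rbx1 down at 7-8 h (5.96%, 7.99% and 13.9%). At 7-8 h neither passed with total reads (cul4 -0.69, adjusted p = 0.139, and rbx1 -0.98, adjusted p = 0.0638). Counted in the strand column, cul4 passed neither at 1-3 h (-0.36, adjusted p = 0.0779) nor at 7-8 h (-0.47, adjusted p = 0.114). The interaction test, which asks whether a deletion's effect differs between phases, was passed by 0 of 6 members for either deletion (8.69% of 5721 genes for red1, 7.81% for pir1). The lowest adjusted p was 0.0819, for ubi4 in the pir1 deletion. Under an unadjusted p of 0.05 were cul4 for red1 deletion and ubi4 and ddb1 for pir1 deletion.

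In vegetative cells no member passed the test for loss of Pir1. The test joined 11 libraries of 5 backgrounds, namely tor2-ts6 with the ubi4, cul4 or ddb1 deletion, mat1Msmt0 in EMM and the vegetative diploid, with the background as a block. None of 6 members passed (26 of 6438 genes, 0.404%, rose and 1, 0.0155%, fell; DESeq2 also called 0 members, and 0 had an unadjusted p under 0.05). The log2 differences were between -0.19 (SE 0.18, rbx1) and 0.07 (SE 0.11, ddb1). In the mat1Msmt0 pair in EMM at 29C spd1 was at 112.9 scaled CPM in pir1 deletion and 124.6 in wild type, and cdt2 at 31.8 in pir1 deletion and 34.5 in wild type. None of the 6 was past a log2 ratio of 1 there (0.927% of 5825 genes higher, 0.652% lower). The authors' own pir1 deletion comparison, in mat1Msmt0 cells in YEA at 30C, was not part of the test. It gave spd1 a log2 fold change of 0.98 and cdt2 one of -0.63, and all 6 members are given below.

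The tor2-ts6 library had a higher cdt2 level than wild type. In YEA at 30C cdt2 had 1523 reads in tor2-ts6 and 410 in wild type, or 130.1 and 39.4 scaled CPM, a log2 ratio of 1.72 with a 95% exact binomial interval of 1.57 to 1.89 that covers counting error only. This is a pair of single libraries, with no replicate check and no p. cdt2 was the only member past a log2 ratio of 1 (16.2% of 5642 genes with at least 50 reads were higher by that much and 15.7% lower). ubi4 had 357.2 scaled CPM in tor2-ts6 and 226.3 in wild type (log2 ratio 0.66), ddb1 213.3 and 128.0 (0.74), and spd1 212.8 and 125.4 (0.76). cul4 (73.2 in tor2-ts6, 65.9 in wild type, 0.15) and rbx1 (41.0 in tor2-ts6, 48.9 in wild type, -0.25) were closer. Scaling by total reads shifts all ratios of this pair by 0.44, which takes 4 members past the fold and gives rbx1 a ratio of 0.19.

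The other genes of the list moved in this pair as follows, where 16.2% of genes were past the fold upward and 15.7% downward. The 4 ubiquitin fusion genes ubi1, ubi2, ubi3 and ubi5 were all past the fold downward in tor2-ts6, with log2 ratios of -2.14, -2.19, -1.75 and -2.44. Of the reductase and licensing genes 3 of 4 were past it upward, cdc22 by 1.24, cdt1 by 1.07 and cdc18 by 1.48, and of the 9 further MBF genes 3 were, rep1 by 3.19, cig2 by 2.62 and mik1 by 1.57. The authors deposited a table for mat1Msmt0 cells in YEA at 30C, tor2-ts6 over a second library. In it spd1 had a log2 fold change of 2.32, ubi4 of 0.42 and cdt2 of 0.41. There cul4 had 0.22, ddb1 0.042 and rbx1 -0.11, and the median of all 6495 features was 0.25. Of these features 23.2% were higher by 1 or more (log2) with the authors' adjusted p under 0.05, and 12.9% were lower by as much. In the authors' deposited table for the pir1 deletion, over a second library, spd1 had 0.98, cdt2 -0.63 and rbx1 0.30. There ubi4 had 0.059, cul4 -0.15 and ddb1 -0.105, and the median of all 6493 features was 0.11. By the same measure 6.68% of these features were higher and 1.29% lower. Neither table names the second library.

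**Figure D4:**
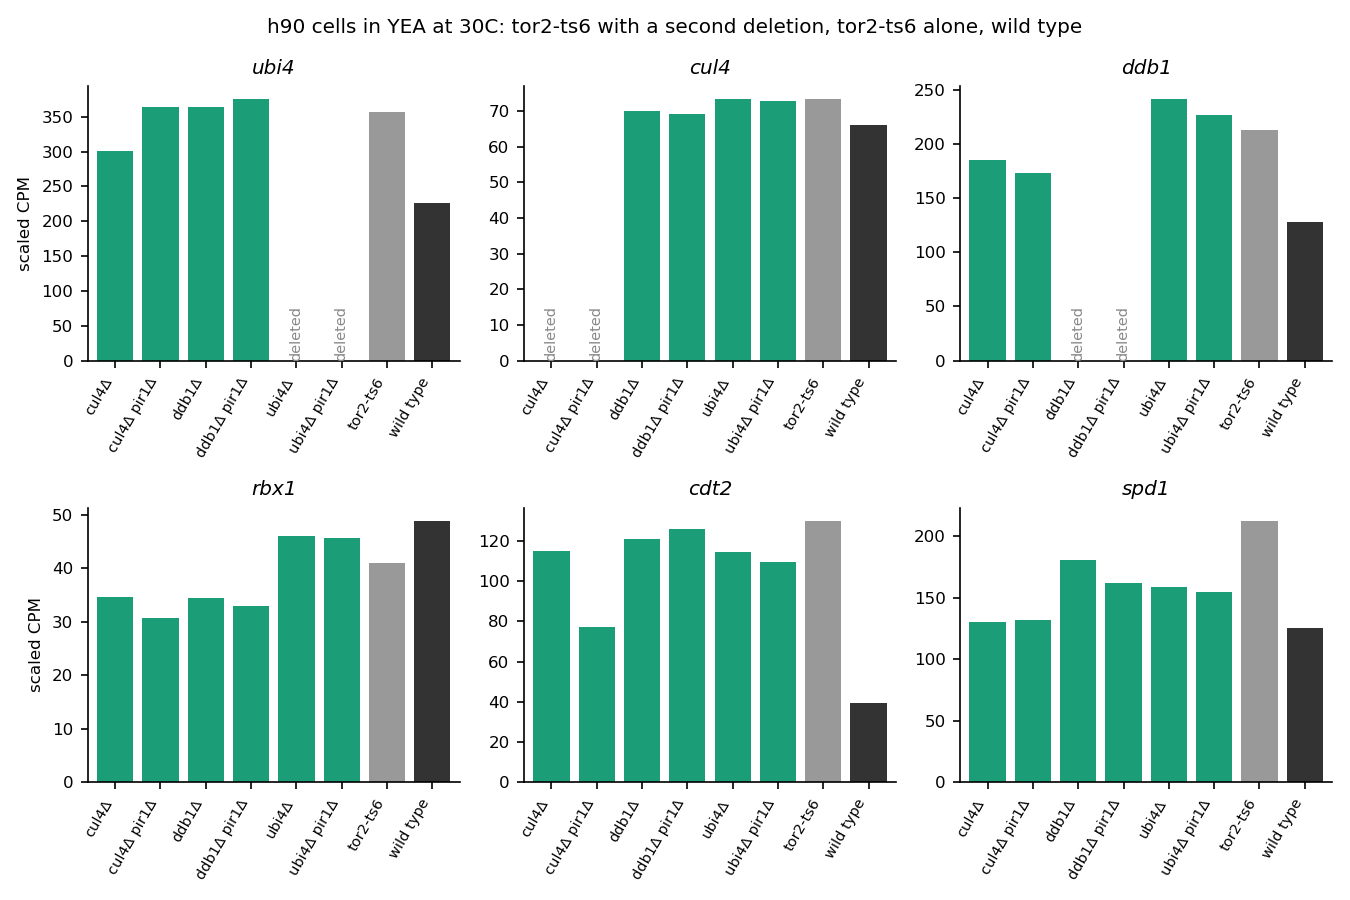
Scaled CPM of the 6 members in h90 cells in YEA at 30C, 1 bar per library, for tor2-ts6 with a further deletion (green), tor2-ts6 alone (grey) and wild type (black); a gene is left out where it is deleted. cdt2 is at 77.2 to 130.1 in all tor2-ts6 strains and at 39.4 in wild type, and rbx1 is lower in the 4 cul4 and ddb1 deletion libraries than in the other libraries.

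Deletion of cul4, ddb1 or ubi4 in tor2-ts6 changed few of the remaining members. The fit joined 7 libraries and 6398 genes, with the pir1 deletion as a term, and tor2-ts6 alone has 1 library, assumed to vary like the others. spd1 was at 130.0 and 132.3 scaled CPM in the cul4 deletion strains (with and without Pir1), at 181.0 and 162.2 in the ddb1 deletion strains and at 159.0 and 154.9 in the ubi4 deletion strains, against 212.8 in tor2-ts6. All 6 deletion libraries were below tor2-ts6 and above wild type (125.4). The log2 difference from tor2-ts6 was -0.65 ± 0.11 (edgeR, adjusted p = 0.0244) for the cul4 deletion, -0.25 ± 0.11 (adjusted p = 0.281) for the ddb1 deletion and -0.44 ± 0.11 (adjusted p = 0.0614) for the ubi4 deletion. The cul4 call was lost when reads were counted without strand (-0.37, adjusted p = 0.127), and without any of the 4 ubi4 or ddb1 deletion libraries (-0.61 to -0.67, adjusted p of 0.0622 to 0.106). The cul4 and ddb1 deletions did not pass against each other for spd1 (-0.40 ± 0.09, adjusted p = 0.0742). So 1 of 5 members fell in the cul4 deletion (8.55% of genes fell, 10.4% rose), 0 of 5 passed in the ddb1 deletion (1.22% fell, 1.20% rose; DESeq2 also 0) and 0 of 5 in the ubi4 deletion (10% fell, 3.75% rose; DESeq2 also 0). Under an unadjusted p of 0.05 stood spd1 alone in the ubi4 deletion and no member in the ddb1 deletion.

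rbx1 was lower in the ligase deletions than in the ubiquitin deletion. Against tor2-ts6 it passed in neither the cul4 deletion (log2 difference -0.27) nor the ddb1 deletion (-0.21). It was at 34.6 and 30.7 scaled CPM in the cul4 deletion strains and at 34.5 and 32.9 in the ddb1 deletion strains, against 46.0 and 45.7 in the ubi4 deletion strains. The 4 ligase-deletion libraries lay below both ubi4 deletion libraries, tor2-ts6 (41.0) and wild type (48.9). The difference between the mean of the cul4 and ddb1 deletions and the ubi4 deletion was -0.41 ± 0.08 (log2, adjusted p = 0.0131), and it did not pass without either ubi4 deletion library (adjusted p of 0.0710 and 0.143) or without the ddb1 deletion library that has Pir1 (0.0586). It was the only one of 3 members that could be compared to pass, where 21.0% of genes fell and 29.4% rose (50.5% together). Read against these shares, the call does not set rbx1 apart from other genes. cdt2 did not differ beyond the spread in that contrast, at 115.1 and 77.2 in the cul4 deletion strains, 121.1 and 126.1 in the ddb1 deletion strains and 114.7 and 109.5 in the ubi4 deletion strains.

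Among the listed genes in these strains, rep1 fell in all 3 deletions against tor2-ts6, with log2 differences of -2.27 ± 0.15 in the cul4 deletion (edgeR, adjusted p = 0.00786), -1.58 ± 0.15 in the ddb1 deletion (adjusted p = 0.0280) and -1.56 ± 0.15 in the ubi4 deletion (adjusted p = 0.0117). mik1 fell in all 3 as well. Of the 9 MBF genes 3 fell in the cul4 deletion, 2 in the ddb1 deletion and 4 in the ubi4 deletion, and none rose. Of all genes tested, 8.55%, 1.22% and 10% fell in these deletions, and 10.4%, 1.20% and 3.75% rose. ubi5 and ubi2 rose in the ubi4 deletion, by 0.90 ± 0.19 (adjusted p = 0.0406) and 0.64 ± 0.14 (adjusted p = 0.0481). Mating-type-specific genes moved with the same strains. The summed level of 9 of them was 677 and 329.4 scaled CPM in the cul4 deletion strains with and without Pir1, 1866 and 719.7 in the ddb1 deletion strains and 3001 and 3204 in the ubi4 deletion strains, against 7890 in tor2-ts6 and 67.3 in wild type. Of the 8 tested, 8 fell in the cul4 deletion against tor2-ts6, among them the P-factor gene map2 (-4.29 ± 0.57, adjusted p = 0.0148) and the P-factor receptor gene mam2 (-3.26 ± 0.49, adjusted p = 0.0187). In the ddb1 deletion 1 fell, the M-factor receptor gene map3 (-2.13 ± 0.33, adjusted p = 0.0497), and in the ubi4 deletion 1 fell, the agglutinin gene mam3 (-1.98 ± 0.43, adjusted p = 0.0454). Their part in the spd1 and rbx1 differences was not tested.

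The deletions themselves left different traces in the counts. In the ubi4 deletion strains ubi4 kept 549 reads with Pir1 and 481 without it, against 4181 in tor2-ts6, and in the ddb1 deletion strains ddb1 kept 114 and 117 reads, against 2496 in tor2-ts6. cul4 depended on how reads were counted. With strand it had 942 and 926 reads in the cul4 deletion strains, against 857 in tor2-ts6 and 686 in wild type. Without strand it had 14 and 39 reads in the cul4 deletion strains, against 756 in tor2-ts6 and 613 in wild type. A noncoding feature, SPNCRNA.909, overlaps cul4 on the opposite strand in RefSeq, and the files list reads that overlap several features as ambiguous. In the other 6 libraries of the set the 2 counts of cul4 differed by 73 to 154 reads. The level of cul4 in the cul4 deletion strains is therefore given by neither column and was left out of every comparison.

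**Figure D5:**
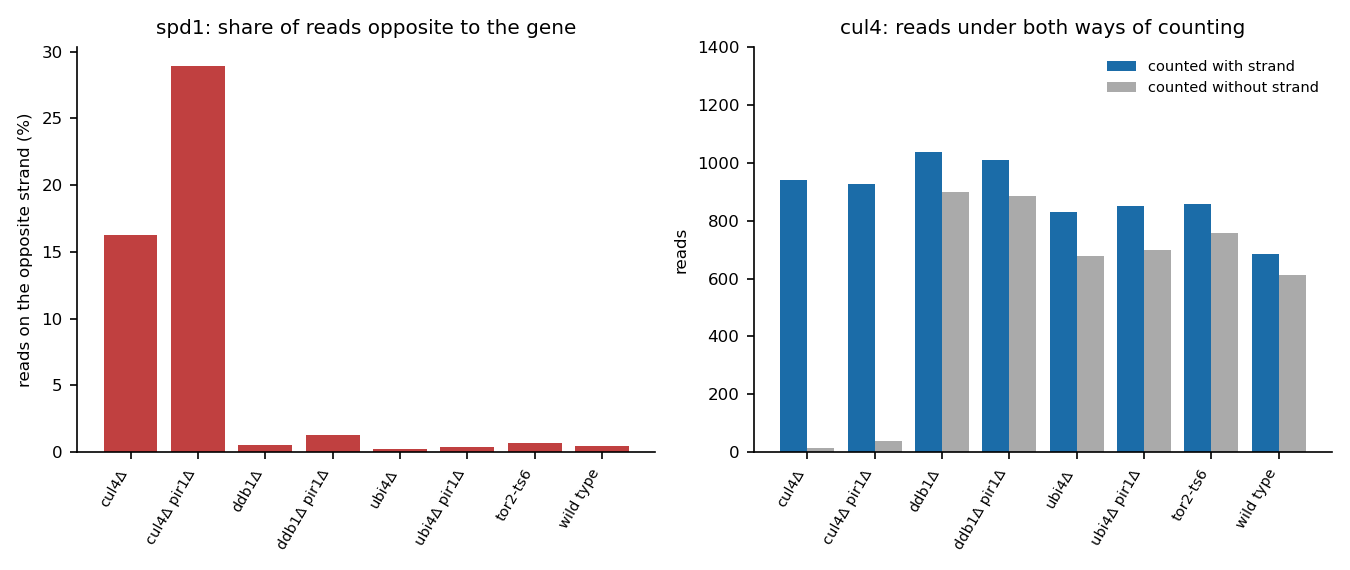
Share of spd1 reads on the strand opposite to the gene (left, percent) and cul4 reads counted with and without strand (right), 1 bar or pair of bars per h90 library in YEA at 30C. The spd1 share is 16.2% and 28.9% in the cul4 deletion strains and at most 1.25% in the other libraries, and the 2 counts of cul4 differ by 928 and 887 reads in the cul4 deletion strains and by 73 to 154 in the others.

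The forms of Pir1 and the medium gave 1 further difference. In EMM at 18C against YEA at 30C, GFP-Pir1 cells had cdt2 at 69.4 scaled CPM in EMM and 29.9 in YEA (2483 and 714 reads), a log2 ratio of 1.21 with an interval of 1.09 to 1.34. It was the only member past the fold (12.1% of 5951 genes were higher and 7.97% lower). Medium and temperature changed together in this pair. spd1 was at 127.8 in EMM and 86.1 in YEA, and ddb1 at 164.6 in EMM and 230.3 in YEA. In the pir1 deletion mat1Msmt0 cells at 29C, cdt2 was at 31.8 in EMM and 27.7 in YEA, and spd1 at 112.9 in EMM and 72.9 in YEA, with no member past the fold (5.25% of 5790 genes higher, 1.93% lower). In EMM at 18C the GFP-Pir1-SD and GFP-Pir1-SA strains had no member past the fold against GFP-Pir1: cdt2 was at 70.1 in SD, 82.1 in SA and 69.4 in GFP-Pir1, and ubi4 at 244.9 in SD, 246.9 in SA and 234.8 in GFP-Pir1. None of the 6 was past the fold in SD (0.390% of genes higher, 3.58% lower) or in SA (0.286% and 0.522%).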

How the data were processed

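Bulk RNA was sequenced in 49 libraries, of which 46 have gene counts, 2 have only the authors' comparison tables and 1 is not analysed here. The submitters' processing notes name Trimmomatic for trimming and STAR for alignment; no version, genome build or annotation is named in the sources used here. The deposited tables hold counts, whole reads per gene, once without strand and once for each strand. In 2 tables of the authors' own comparisons stand a log2 fold change and, per the file headers, a q-value (an adjusted p-value); 4 further value columns in them carry no sample name and stayed out. The strand column was used for a set where every library had at least 4 times as many reads in it as in the opposite one, and the column without strand for the course. Entries naming no gene were left out, and 6845 of 7015 features matched RefSeq ASM294v3.

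Tests used edgeR 4.0.16 in R 4.3.3 (TMM, filterByExpr, glmQLFit, glmQLFTest, Benjamini-Hochberg over all genes tested, threshold 0.05) and were tested on simulated data. Pairs of single libraries used a log2 ratio with a prior count of 2, 50 or more reads in one of the libraries and a log2 threshold of 1. Alternatives were DESeq2 1.42.0, its size factors, total reads, no filter, other count columns, prior count 0.5, at least 10 reads and left-out libraries. Intervals cover counting error only, since no molecular identifiers are named in the sources used here. The members, lists and rules were chosen with earlier results of these data known. The text names the 6 members, up to 4 passing genes per list and comparison by smallest p (a selection is printed), and the 3 genes most like each member. The 2 mating-gene lists were summed together after their values were seen, since map3 and mam3 stood under the other mating type. One listed gene is not reported here.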

Additional observations from a re-analysis of the deposited data

Results flagged for a closer look

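In the cul4 deletion strains, reads on the strand opposite to spd1, which enter no main comparison and only the count without strand, numbered 297 with Pir1 and 718 without it, or 16.2% and 28.9% of the spd1 reads of both strands, against 17 reads (0.678%) in tor2-ts6 and 6 reads (0.458%) in wild type. In the ddb1 and ubi4 deletion strains they numbered 4 to 30. Over all genes of a library the opposite strand held 14.7% and 15.9% in the cul4 deletion strains, 12.9% in tor2-ts6 and 11.9% in wild type. Of 4795 features with at least 100 reads on their strand in every one of these 8 libraries, 113 (2.36%) had an opposite-strand share at least 10 points higher in both cul4 deletion strains than in all the others.

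cul4 itself, in the same strains, had 928 and 887 more reads with strand than without it, against 101 in tor2-ts6 and 73 in wild type.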

How the results depend on the processing

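Of 6 members, the number called moved by more than 1.5 times as follows. Scaling by total reads called 5 members in starvation against vegetative growth (2 with TMM), 1 at 7-8 h against 4-6 h (0), 0 at 1-3 h, 2 at 4-6 h and 1 at 7-8 h for the red1 deletion (1, 1 and 3), and 0 at 7-8 h for the pir1 deletion (2), and put 4 members past the fold in tor2-ts6 against wild type (1). The DESeq2 test called 1 at 7-8 h against 4-6 h. The fit without a strain term called 2 at 4-6 h against 1-3 h (4). The vegetative libraries left out gave 1 for the red1 deletion over the course (2). The strand column gave 1 for the pir1 deletion before induction (0) and 1 at 7-8 h (2). Without wild-type vegetative library 2 and the pir1 deletion vegetative library, an alternative chosen after seeing the data, 1 was called for the pir1 deletion before induction, and ubi4 in the red1 deletion before induction did not pass (0.83, adjusted p = 0.0759). The column without strand gave 0 for the cul4 deletion (1). rbx1 at 4-6 h against 1-3 h reversed under total reads (-0.062). The cause was not tested.

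With 1 library, hour, strain or background left out, the numbers ran from 0 to 1 (1-3 h against starved), 0 to 4 (4-6 h against 1-3 h), 0 to 1 (7-8 h against 4-6 h), 1 to 2 (red1 deletion over the course, and at 4-6 h), 0 to 1 (red1 deletion by phase), 0 to 2 (cul4 deletion), 0 to 1 (ubi4 deletion), 0 to 1 (cul4 and ddb1 deletions against ubi4 deletion) and 0 to 1 (cul4 against ddb1 deletion). No paired analysis was possible because no compared groups share 2 replicate numbers; hour and background served as blocks in the fits of strain and of Pir1 loss. Depth gave each member at least 308 reads in every library where it was not deleted.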

Other observations

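Genes that work beside the Cul4 ligase moved in the course too. Rik1, a relative of Ddb1, joins Cul4 in the CLRC complex, which holds the histone methyltransferase Clr4. In the red1 deletion 2 of 5 CLRC genes rose and 0 fell over the course: clr4 by 0.99 ± 0.22 and rik1 by 0.51 ± 0.18 (log2, SE, edgeR, adjusted p = 0.00126 and 0.0292), with a list median of 0.51 beside -0.02 over all genes, of which 14.2% rose and 18.1% fell. Of 8 genes of other cullins and their adaptors, 4 fell in the pir1 deletion and 0 rose, where 24.1% of all genes fell and 17.4% rose, among them cul1, the scaffold of the SCF ligase (-0.57 ± 0.08, adjusted p = 5.26e-06), and its adaptor skp1 (-0.76 ± 0.13, adjusted p = 6.30e-05). The uncertain place of the wild-type libraries, described for rbx1, holds for these strain differences as well.

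The COP9 signalosome removes the ubiquitin-like protein Ned8 from cullins. None of its 6 listed genes passed in starved against vegetative cells in edgeR, with csn2 under an unadjusted p of 0.05. At 4-6 h against 1-3 h 2 rose and 1 fell, where 22.0% and 21.6% of all genes did, with csn4 at 0.66 ± 0.18 (log2, adjusted p = 0.00477) and csn3 at 0.50 ± 0.12 (adjusted p = 0.00216), calls that scaling by total reads did not give. In the pir1 deletion 1 rose and 1 fell over the course, with a list median of 0.05: csn1 was at -1.43 ± 0.33 (adjusted p = 0.00125) and csn71 at 0.82 ± 0.30 (adjusted p = 0.0305), which did not pass with total reads (0.68, adjusted p = 0.0588). In starvation 4 of the 8 cullin and adaptor genes rose and 1 fell, where 20.5% and 19.3% of all genes did, with cul1 at 0.81 ± 0.13 (adjusted p = 9.46e-06) and the Cul3 adaptor gene btb1 at 0.97 ± 0.12 (adjusted p = 3.72e-07). Of the 4 neddylation genes 1 rose in starvation, knd1 (0.56 ± 0.21, adjusted p = 0.0338).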
